A study of Mus musculus with 6 samples.

Results

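The B cell identity genes are 9 genes that mark B lymphocytes, *Ms4a1*, *Cd79a*, *Cd79b*, *Pax5*, *Cd22*, *Blk*, *Cr2*, *Fcer2a* and *Spib*. They were chosen by gene symbol from the expression table of BK5.ATF3 mammary tumors and normal glands, and all 9 were present among its 15280 genes. All 9 were lower in the tumors than in the normal, adjacent glands of the same mice, and their summed level in the tumors was 3.13% of that in the glands. Each member passed limma's test at an absolute fold change of at least 2 and an adjusted p of at most 0.05, as did 13.7% of all genes in that direction.

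RNA-Seq libraries were made from 3 female mice carrying the ATF3 transgene, whose BK5 promoter (bovine keratin K5) is active in basal epithelial cells. Each mouse had raised a litter and developed a mammary tumor, which in this model appears at 6 to 12 months of age, and tissue was taken when the tumor was 1.5 cm long. From each mouse 1 tumor (T11035, T11640, T9232) and 1 normal mammary gland (M11035, M11640, M9232) were sequenced, so n = 3 for each tissue. The glands carried the transgene too, so no group was wild-type, and the *Atf3* row read 4.47, 8.09 and 22.6 CPM in the glands and 13.4, 18.3 and 19.3 CPM in the tumors, without separating transgene from endogenous transcripts. Depth ranged from 4750989 to 7806908 gene fragments per library, where 3 fragments corresponded to 0.393 to 0.610 CPM, the fragments of a gene scaled to edgeR's effective library size. Of the tissue markers, the 8 adipocyte genes summed to 3131 to 6315 CPM in the glands and 159 to 215 CPM in the tumors, and the 8 epithelial genes to 231 to 502 CPM in the glands and 2460 to 2891 CPM in the tumors. The log2 fold change (log2FC, tumor over gland) ranged from -7.00 (*Adipoq*, an adipokine) to -3.23 (*Lipe*, a lipase) among the former and from 0.56 (*Epcam*, an adhesion protein) to 5.75 (*Krt14*, a basal keratin) among the latter.

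B cells recognise antigen through a membrane immunoglobulin that signals through the Cd79a and Cd79b chains, whose phosphorylated tyrosines recruit the kinase Syk. Coreceptors such as the complement receptor Cr2 lower the threshold for activation, whereas Cd22 raises it by recruiting phosphatases. Pax5 and Ebf1 hold the B cell program in place, and B cells are found in lymph nodes, including the node embedded in the mouse mammary fat pad, and as scattered cells in mammary tissue.

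Promoters were examined for the letters of sites bound by B cell factors, Spi-B among them, and 6 of the 9 members were matched to RefSeq (sequences of the GRCm38.p6 table, placed on mm9 by a unique match), with 8 start sites because *Fcer2a* has 3. Each promoter ran from 250 bases before to 50 bases after the start, and 4 motifs were searched on both strands. These were the octamer ATGCAAAT, the purine-rich site GAGGAA bound by PU.1 and Spi-B, the EBF1 site CCCNNGGG and the E-box CANNTG. The 3 promoters that held a GAGGAA or CCCNNGGG match are printed 5′ to 3′ in the direction of the gene, with these matches in capitals. The *Cd79a* promoter lies at chr7:25682266-25682565 on the plus strand, *Cd22* at chr7:31663998-31664297 on the minus strand and *Spib* at chr7:51787392-51787691 on the minus strand (all positions are on mm9, and the *Cd22* window lies inside the annotated gene).
Cd79a promoter: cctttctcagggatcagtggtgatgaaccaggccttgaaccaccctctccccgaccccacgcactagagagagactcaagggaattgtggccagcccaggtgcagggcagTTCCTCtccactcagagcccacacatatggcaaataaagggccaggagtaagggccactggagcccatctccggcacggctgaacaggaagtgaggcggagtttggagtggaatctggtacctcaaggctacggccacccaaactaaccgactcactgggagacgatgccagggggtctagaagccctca
Cd22 promoter: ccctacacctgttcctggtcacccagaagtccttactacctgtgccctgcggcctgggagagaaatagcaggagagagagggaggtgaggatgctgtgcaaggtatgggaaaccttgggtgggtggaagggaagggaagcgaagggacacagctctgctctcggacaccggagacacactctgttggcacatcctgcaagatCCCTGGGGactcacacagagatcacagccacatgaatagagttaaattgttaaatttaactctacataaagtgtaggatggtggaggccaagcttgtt
Spib promoter: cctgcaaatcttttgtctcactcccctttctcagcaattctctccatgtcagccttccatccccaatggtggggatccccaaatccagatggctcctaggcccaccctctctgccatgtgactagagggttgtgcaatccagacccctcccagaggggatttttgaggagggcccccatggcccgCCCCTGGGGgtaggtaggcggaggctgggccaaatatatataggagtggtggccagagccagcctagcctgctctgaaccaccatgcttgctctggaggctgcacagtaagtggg
In *Cd79a* the capitals are GAGGAA read on the opposite strand, from -140 to -135 relative to the start. *Cd22* held CCCNNGGG from -48 to -41, and *Spib* held an overlapping pair of CCCNNGGG matches, from -65 to -58 and from -64 to -57. Among the 8 member promoters, 1 held GAGGAA, 2 held CCCNNGGG, 0 held the octamer and 8 held an E-box. Among all 32851 promoters of the RefSeq table, the shares were 28.3%, 13.7%, 1.74% and 72.3%. A match describes letters in this window and not binding, and *Ms4a1*, *Cd79b* and *Blk* were not searched here.

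The signaling chains of the B cell receptor were close to the limit of detection in the tumors. *Cd79a*, which encodes the Igα chain (chr7:25682400-25687216), read 27.7, 8.42 and 19.0 CPM in glands M11035, M11640 and M9232, and 0.186, 0.393 and 0.450 CPM in the tumors of the same mice. The tumor values stood for 1, 3 and 3 fragments, and every tumor lay below every gland. Its log2FC was -4.35 (standard error, SE, 0.42, limma adjusted p = 9.32e-05). *Cd79b*, which encodes the Igβ chain (chr11:106172655-106176076), read 54.5, 18.3 and 31.3 CPM in the glands and 0.744, 0.655 and 1.05 CPM in the tumors. The tumors again lay below all glands, with 4, 5 and 7 fragments, and the log2FC was -4.62 (SE 0.38, limma adjusted p = 3.78e-05). Both chains thus fell in each of the 3 mice. In tumor T11035, *Cd79a* was 0.673% and *Cd79b* 1.37% of the gland of that mouse. In T11640 they were 4.67% and 3.57%, and in T9232 2.36% and 3.35%.

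*Blk*, a Src-family kinase that acts just below the receptor (chr14:63991674-64036024), had the smallest fall of the 9 members. It read 10.2, 4.29 and 5.61 CPM in the glands and 0.930, 1.31 and 0.150 CPM in the tumors, from 5, 10 and 1 fragments. The groups did not overlap, but the tumors kept between 2.67% (mouse of T9232, from 1 fragment) and 30.5% (mouse of T11640) of the gland level. The log2FC was -2.51 (SE 0.46, limma adjusted p = 0.00296).

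Among the surface receptors, *Ms4a1*, which encodes CD20, had the largest fall of the members and ranked 26 from the lowest log2FC of all 15280 genes. *Ms4a1* (chr19:11324654-11340669) read 175, 78.3 and 155 CPM in the glands and 1.86, 0.917 and 1.50 CPM in the tumors, from 10, 7 and 10 fragments. Its log2FC was -6.10 (SE 0.33, limma adjusted p = 5.43e-06), and the level was close to 1% of the gland in each mouse (1.06%, 1.17% and 0.964%). *Cr2*, the complement receptor CD21/CD35, is carried by mature B cells and by follicular dendritic cells. Its CPM was the highest of the members in every gland (chr1:196963005-197002909), with 341, 145 and 182 CPM against 5.21, 8.13 and 5.39 CPM in the tumors. *Cr2* fell by 4.97 on the log2 scale (SE 0.32, limma adjusted p = 1.09e-05), and no tumor reached 6% of its gland (1.53%, 5.61% and 2.97%).

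*Fcer2a* (chr8:3681737-3694174) encodes CD23, the low-affinity IgE receptor of mature follicular B cells, which like Cr2 is also found on follicular dendritic cells. It read 55.1, 21.5 and 24.3 CPM in the glands and 0.930, 0.393 and 0.599 CPM in the tumors. With 5, 3 and 4 fragments it was barely detected in the tumors, and the log2FC was -4.80 (SE 0.38, limma adjusted p = 3.22e-05). *Cd22*, the inhibitory sialic acid-binding receptor (chr7:31650421-31665361), was better covered. It read 106, 31.1 and 67.3 CPM in the glands and 5.21, 4.85 and 7.19 CPM in the tumors, from 28, 37 and 48 fragments. The tumors lay below all glands, at 4.90%, 15.6% and 10.7% of the gland of the same mouse, with a log2FC of -3.31 (SE 0.40, limma adjusted p = 3.05e-04). In the tumors *Cd22* and *Cr2* had the highest CPM of the members, and no other member was above 3 CPM in any tumor.

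Both transcription factors fell as well. *Pax5* (chr4:44544017-44724318), the commitment factor of the lineage, read 14.4, 4.13 and 7.66 CPM in the glands. It had 0.558 CPM (3 fragments) in T11035 and 0 fragments in T11640 and T9232, where a count of 0 allows up to 0.393 and 0.450 CPM. The log2FC was -3.69 (SE 0.50, limma adjusted p = 5.54e-04). *Spib* (chr7:51781365-51787441), the ETS factor Spi-B, read 69.7, 17.7 and 43.4 CPM in the glands and 2.42, 1.31 and 1.35 CPM in the tumors. Its log2FC was -4.16 (SE 0.46, limma adjusted p = 1.85e-04), with 3.47%, 7.42% and 3.11% of the gland level left. *Spib* is also expressed by plasmacytoid dendritic cells, whose markers are given with the other cell types.

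**Figure D1:**
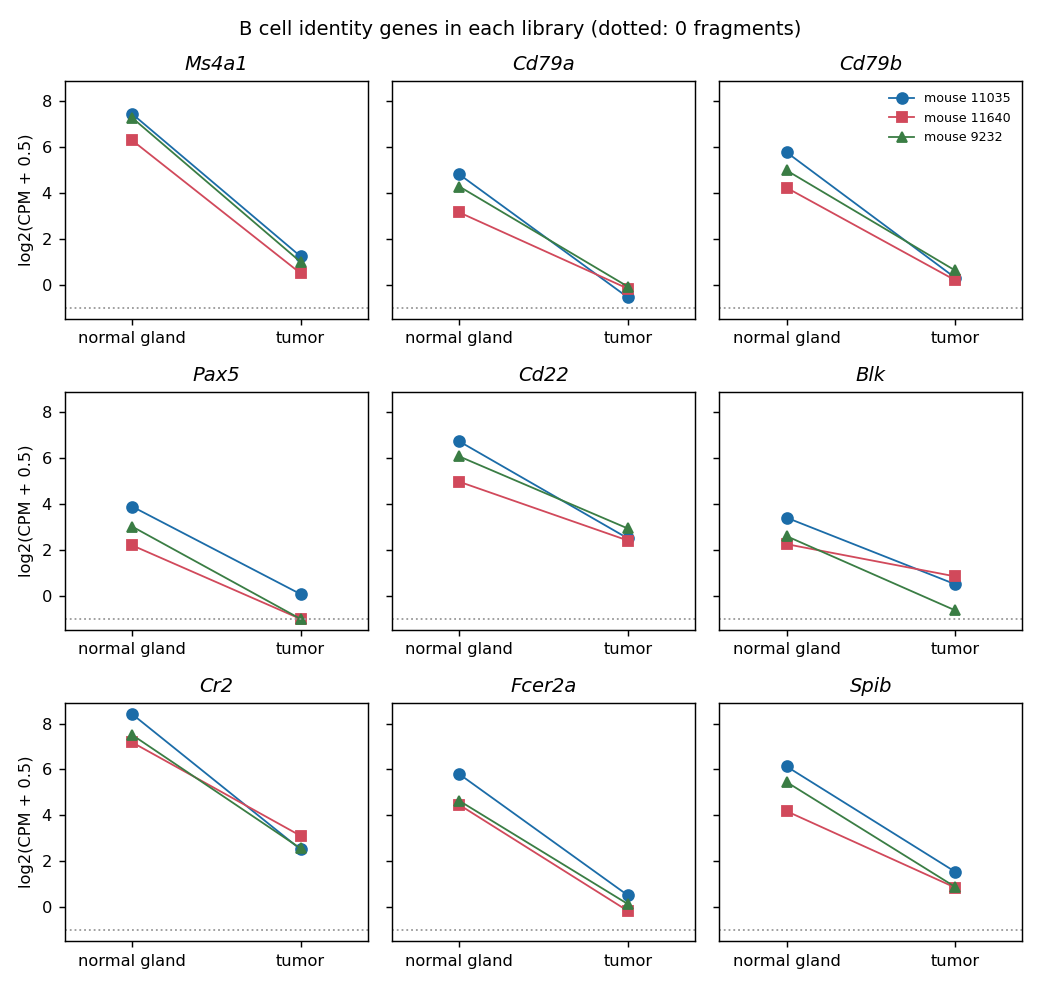
Level of each of the 9 B cell identity genes (log2(CPM + 0.5)) in the 3 normal glands and the 3 tumors, with a line joining the tissues of 1 mouse and a dotted line at the value of 0 CPM. Every line falls, and every tumor lies below every gland in all 9 genes, with *Pax5* at the dotted line in T11640 and T9232.

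These fold changes are on the log2(CPM + 0.5) scale, which understates the fall of genes near 0. The pooled fragments, relative to the pooled effective library sizes, gave a gland-to-tumor ratio of 98.5 for *Ms4a1* (95% exact interval 67.5 to 150, counting error only), where the fitted fold was 68.6. *Cd79a* had a ratio of 50.1 (24.1 to 126) against a fitted fold of 20.3, and *Pax5* 54.5 (18.3 to 267) against 12.9. For *Cd22* the ratio of 11.5 (9.44 to 14.0) was close to the fitted 9.91, and for *Blk* it was 7.87 (4.65 to 14.2) against 5.70. The other 4 were *Fcer2a* at 51.9 (29.5 to 101), *Cd79b* at 40.9 (25 to 72.0), *Cr2* at 33.1 (27.8 to 39.9) and *Spib* at 25.8 (18.1 to 38). The order of the low members by size of fall therefore depended on the scale.

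In all 9 members the 3 tumors lay below the 3 glands, which was the case for 26.3% of all genes. The median log2FC of the members was -4.35, beside -0.0028 over all genes. An exact permutation test of 3 against 3 libraries cannot go below p = 0.1 for a single gene, so the calls rest on the variance that limma shares across genes. In bulk tissue, fewer B cells and less RNA of these genes per B cell cannot be told apart.

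Levels of different members were compared per kb of exon. In the glands the order was *Ms4a1* (54.0 ± 20.3 CPM per kb, SD, n = 3), *Cr2* (30.3 ± 14.2), *Cd79b* (24.3 ± 12.8), *Cd22* (15.8 ± 8.72), *Spib* (15.3 ± 9.17), *Fcer2a* (14.8 ± 8.18), *Cd79a* (12.6 ± 6.61), *Blk* (2.70 ± 1.25) and *Pax5* (2.55 ± 1.53). The gaps between *Ms4a1* and *Cr2* and between *Cd79a* and *Blk* exceeded the larger SD of the neighbours, and the other gaps did not. Because all members were measured in the same glands and shared the spread between them, the order within a gland was also read. In each of the 3 glands *Ms4a1* was above *Cr2*, *Cr2* above *Cd79b* (46.4 and 38.1, 19.7 and 12.8, 24.8 and 21.9 CPM per kb) and *Cd79b* above *Cd22* (24.6, 7.19 and 15.6 CPM per kb). In the tumors *Cd22* had the highest mean per kb (1.33 ± 0.292 CPM per kb, SD, n = 3). It was also the highest in each tumor, but in T11640 *Cd22* and *Cr2* were almost level (1.12 and 1.11 CPM per kb). *Cr2* (0.851 ± 0.223), *Spib* (0.596 ± 0.222), *Cd79b* (0.570 ± 0.144) and *Ms4a1* (0.565 ± 0.189) had lower means, and these last 3 did not differ beyond their spread.

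The glands themselves differed in the same order for every member. All 9 members were highest in M11035, next in M9232 and lowest in M11640. The ratio of M11035 to M11640 had a median of 2.97 over the members, from 2.24 (*Ms4a1*) to 3.95 (*Spib*), and that of M9232 to M11640 a median of 1.86 (1.13 to 2.45). No such order appeared in the tumors, where 4 members were highest in T11035, 2 in T11640 and 3 in T9232. Low counts, such as 1, 3 and 3 fragments of *Cd79a* and 13, 10 and 9 of *Spib*, limit the reading of an order there. Summed over the members, the glands held 854, 329 and 536 CPM (573 ± 264, SD, n = 3). The sums of the tumors were 18.1, 18 and 17.7 CPM (17.9 ± 0.191), or 2.11%, 5.47% and 3.30% of the gland of the same mouse. The tumor sums lay within 1 CPM of each other, but they rest on few fragments and some members varied more. In T11035, T11640 and T9232, *Cr2* read 5.21, 8.13 and 5.39 CPM and *Blk* 0.930, 1.31 and 0.150 CPM. The closeness of the sums is therefore no measure of how alike the tumors were. *Cr2* alone made up 28.9% to 45.3% of a sum.

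The T cell list had a similar order of the glands. Of its 16 genes, 15 were highest in M11035 and 16 lowest in M11640, with a median M11035-to-M11640 ratio of 2.55. The 10 macrophage genes had a median ratio of 0.436 and the 8 adipocyte genes 0.843, and in both lists 0 genes were above 1. For M9232 over M11640, however, 9 of the 10 macrophage genes were above 1 (median 1.52). All 10 pan-leukocyte genes were above 1 in both ratios (medians 1.90 and 1.48). Their part in the order of the members was not tested.

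The other genes of the B cell program were taken from 4 lists with 67 genes, of which 66 were in the table and *Tnfrsf13b* was not analysed here. In total 35 were called lower, 5 were called higher (14.5% of all genes were) and 26 were not called, with a median log2FC of -1.47. A log2FC above 0 was found in 10 of these 66 genes and in 0 of the 9 members.

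**Figure D2:**
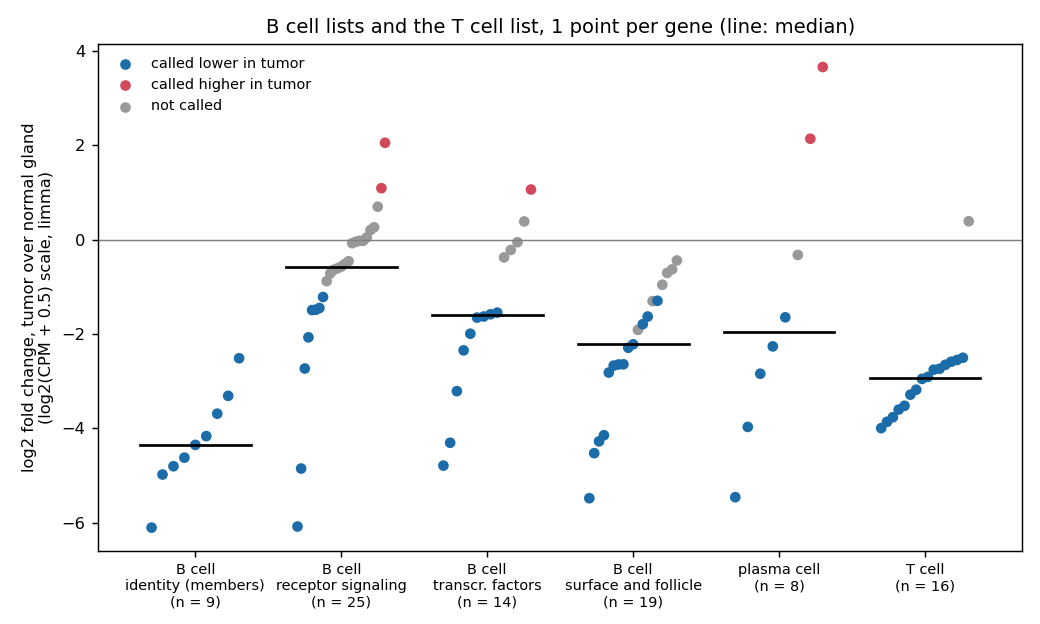
Log2 fold change (tumor over normal gland, log2(CPM + 0.5), limma) of each gene of the B cell lists and the T cell list, colored by call, with a line at the median of each list. All 9 members and 15 of 16 T cell genes are called lower, whereas the receptor signaling list has a median of -0.57 and both called directions.

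Of 25 genes of B cell receptor signaling, 8 were called lower, 2 higher and 15 were not called (median log2FC -0.57). Of all genes, 14.5% were called higher. The 2 genes of this list that rose are inhibitory receptors, as is the member *Cd22*, which was called lower (log2FC -3.31). *Fcgr2b*, the inhibitory Fc receptor that macrophages also carry, rose from 20.8 ± 5.91 to 87.8 ± 26.8 CPM (SD, n = 3), with a log2FC of 2.05 (SE 0.27, limma adjusted p = 5.18e-04). *Cd72*, a C-type lectin receptor of B cells that is also found on myeloid cells, rose from 5.93 ± 2.47 to 12.5 ± 1.19 CPM, with a log2FC of 1.09 (limma adjusted p = 0.0189), and was called in 11 of 15 alternative settings.

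Among 14 B cell transcription factors, 9 were called lower, 1 higher and 4 were not called. *Pou2af1*, the octamer coactivator OBF-1 of B cells, fell from 326 ± 137 to 11.2 ± 5.52 CPM (SD, n = 3), with a log2FC of -4.79 (SE 0.41, limma adjusted p = 4.41e-05). *Ebf1*, which works with Pax5 but is also made by adipocytes and stromal cells, fell from 65.1 ± 7.80 to 21.6 ± 3.93 CPM, with a log2FC of -1.58 (SE 0.19, limma adjusted p = 2.61e-04). All 8 adipocyte genes were called lower (median log2FC -5.95), and their part in the *Ebf1* value was not tested. *Id3*, an inhibitor of E proteins present in many cell types, rose from 11.6 ± 3.04 to 24.4 ± 3.29 CPM (log2FC 1.06, limma adjusted p = 0.00779) and was called in 12 of 15 alternative settings.

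Of 19 genes of the B cell surface and follicle, 13 were called lower, 0 higher and 6 were not called (median log2FC -2.22). *Tnfrsf13c*, the BAFF receptor that mature B cells need for survival, read 84.8, 23.3 and 58.0 CPM in the glands and 0.558, 0.655 and 0.599 CPM in the tumors. Its log2FC was -5.48 (SE 0.43, limma adjusted p = 2.90e-05). Its ligand *Tnfsf13b* (BAFF), made mainly by myeloid and stromal cells, had the smallest change of the list, with 5.22 ± 1.81 CPM in the glands and 3.61 ± 0.854 CPM in the tumors (SD, n = 3). At a log2FC of -0.44 (limma adjusted p = 0.312) it was not called.

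Plasma cells, the antibody-secreting descendants of B cells, lose *Pax5* and most surface markers of the members. Of their 8 genes, 5 were called lower, 2 higher and 1 was not called. *Igj*, the J chain of secreted IgA and IgM, read 331, 1078 and 1178 CPM in the glands and 8.37, 20.4 and 26.4 CPM in the tumors, with a log2FC of -5.46 (SE 0.54, limma adjusted p = 9.81e-05). Its lowest gland was M11035, where all 9 members were highest. The other genes called lower were divided. *Derl3* and *Tnfrsf17* were also lowest in M11035, whereas *2010001M09Rik* (*Mzb1*) and *Slamf7* were lowest in M11640, like the members. The 2 genes that rose, *Sdc1* and *Prdm1*, are also expressed by epithelial cells. *Sdc1* (syndecan-1) rose from 15.6 ± 5.56 to 196 ± 27.8 CPM (SD, n = 3) and *Prdm1* (Blimp-1) from 46.4 ± 12.9 to 207 ± 60.9 CPM (limma adjusted p = 1.48e-05 and 3.86e-04). Of the 8 epithelial genes, 7 were called higher (median log2FC 2.87), and their part in these 2 rises was not tested.

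T cells were the other lymphocyte type examined, and 15 of their 16 genes were called lower (median log2FC -2.93). *Cd28*, a costimulatory receptor, had the largest fall, from 104 ± 29.6 to 6.14 ± 2.28 CPM (SD, n = 3), with a log2FC of -3.99 (SE 0.30, limma adjusted p = 2.29e-05). *Bcl11b*, a T cell factor that is also expressed in skin epithelium, read 61.4, 25.1 and 36.8 CPM in the glands and 53.8, 52.3 and 45.9 CPM in the tumors and was not called (log2FC 0.39, limma adjusted p = 0.317). The T cell genes summed to 848, 352 and 600 CPM in the glands and 97.3, 93.7 and 113 CPM in the tumors, which is 11.5%, 26.6% and 18.9% of the gland of the same mouse.

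In every mouse the tumor kept a smaller share of the member sum than of the T cell sum. The B-to-T ratio of the summed levels was 1.01, 0.932 and 0.892 in the glands, in the order M11035, M11640 and M9232, against 0.185, 0.192 and 0.156 in the tumors, so the tissues did not overlap. With *Bcl11b* among the T cell genes, the ratio varied little within a tissue, although the sums of the glands differed more than 2-fold. Relative to the 10 pan-leukocyte genes, the member sum was 27.0%, 18.8% and 21.1% in the glands and 1.81%, 1.45% and 1.25% in the tumors. For the T cell sum the shares were 26.8%, 20.1% and 23.7% in the glands and 9.78%, 7.57% and 8.0% in the tumors. The sums are dominated by their abundant genes and were compared without a test. In the tumors *Bcl11b*, which is also epithelial and was not called, gave 53.8, 52.3 and 45.9 CPM of the T cell sums of 97.3, 93.7 and 113 CPM. The T cell shares and the B-to-T ratios of the tumors therefore depend on this gene. Without it the gap to the members is narrower and the B-to-T ratios of the tumors lie further apart.

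**Figure D3:**
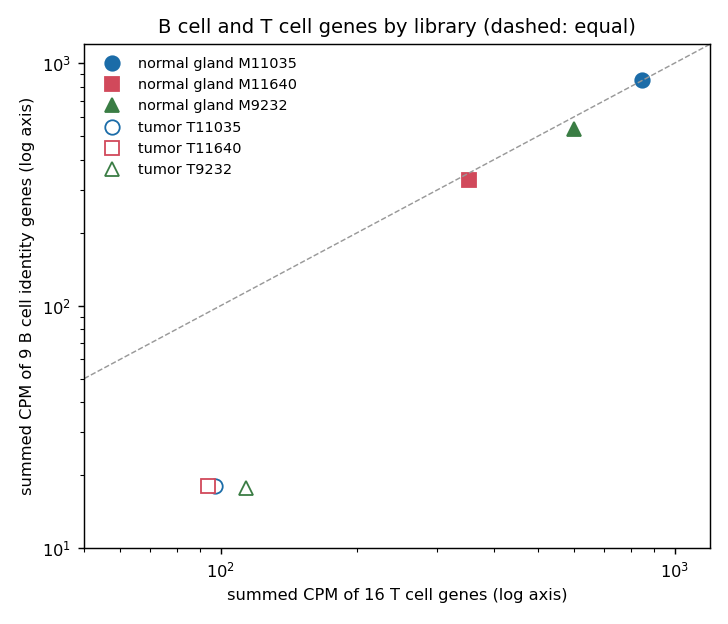
Summed CPM of the 9 B cell identity genes against that of the 16 T cell genes in each library, both on log axes, with a dashed line at a ratio of 1. The 3 glands lie near a ratio of 1 (0.892 to 1.01) and the 3 tumors between 0.156 and 0.192. In the tumors 45.9 to 53.8 CPM of each T cell sum comes from *Bcl11b*, which was not called.

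The leukocyte-wide and macrophage lists had medians nearer to 0 (log2 scale). Of the 10 pan-leukocyte genes, 3 were called lower, 0 higher and 7 were not called (median log2FC -0.87). *Dock2*, which drives leukocyte migration, had a log2FC of -1.69 (limma adjusted p = 9.20e-04) and *Cd53*, a leukocyte tetraspanin, -0.01 (adjusted p = 0.984). Of the 10 macrophage genes, 1 was called lower, below the 13.7% of all genes, and 9 were not called. Their median log2FC was 0.42. The gene called lower was *Cd163*, a scavenger receptor of resident macrophages (log2FC -2.28, limma adjusted p = 0.0309). Its tissues overlapped, with 12.4 CPM in gland M11035 and 13.5 CPM in tumor T9232. *C1qa*, the complement component, had a log2FC of 0.84 (limma adjusted p = 0.0635). The macrophage sum of the tumors was 108%, 115% and 60.0% of the gland of the same mouse.

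Plasmacytoid dendritic cells, which share *Spib* with B cells, had 6 genes in the table, with 3 called lower, 2 higher and 1 not called. *Siglech*, their sialic acid-binding receptor, fell from 33.2 ± 15.3 to 7.11 ± 1.89 CPM (SD, n = 3), with a log2FC of -2.07 (limma adjusted p = 0.00228). *Ly6d*, which is also made by squamous epithelium, rose (log2FC 2.79, limma adjusted p = 1.10e-04), as did *Bst2*, an interferon-induced gene (log2FC 1.57, limma adjusted p = 0.0265).

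Of the lymph node stroma and high endothelial venule list, 5 of 9 genes were in the table, and *Madcam1*, *Ccl21a*, *Ccl19* and *Fdcsp* were not analysed here. *Glycam1*, a ligand of the homing receptor L-selectin on high endothelial venules and also a milk protein, read 689, 208 and 850 CPM in the glands and 2.61, 1.83 and 3.30 CPM in the tumors. Its log2FC was -7.36 (SE 0.47, limma adjusted p = 1.15e-05). *Chst4*, a sulfotransferase of the same vessels, had 18, 4 and 11 fragments in the glands and 0 in each tumor (limma adjusted p = 0.0105). *Il7*, a stromal survival factor of lymphocytes, fell from 14.9 ± 4.62 to 5.28 ± 1.42 CPM (log2FC -1.40, limma adjusted p = 0.00725). *Tnfsf11* (RANKL), also an epithelial signal, rose (log2FC 1.39, limma adjusted p = 0.0145). *Cxcl13*, which attracts B cells into follicles, read 75.0, 40.5 and 96.6 CPM in the glands and 6.89, 11.3 and 64.6 CPM in the tumors. It was not called (log2FC -1.91, limma adjusted p = 0.0611), but with the mouse as a block it was (adjusted p = 0.0166). The list sum of the tumors was 3.67%, 13.0% and 9.25% of that of the gland. *Glycam1* made up 86.1% of the mean gland sum, and without it the other 4 genes kept 26.0%, 59.5% and 69.1% of the gland of the same mouse. This list value therefore rests on *Glycam1*, and the presence of lymph node tissue in the gland samples was not tested.

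**Figure D4:**
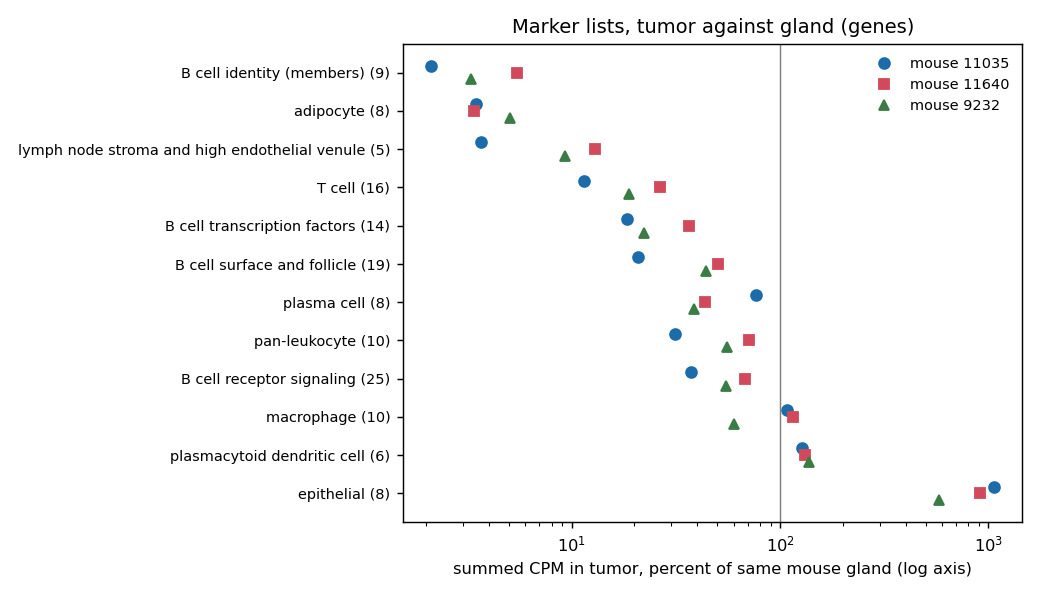
Summed CPM of each list in the tumor as a percentage of the gland of the same mouse (log axis), with 1 symbol per mouse and the number of genes in brackets. The members lie at 2.11% to 5.47%, near the adipocyte list (3.40% to 5.06%), while the macrophage list lies at 60.0% to 115% and the epithelial list above 500%. The points rest on the abundant genes of a list. Without *Glycam1* the lymph node list lies at 26.0% to 69.1%, and without *Igj* the plasma cell list at 128% to 206%. Without *Lyz2* the macrophage list lies at 79.8% to 169%, and without *Ptprc* the pan-leukocyte list at 38.6% to 95.3%. The plasmacytoid dendritic cell list lies at 128% to 137%, but at 54.8% to 109% without *Tcf4*. The members lie at 2.50% to 5.35% without *Cr2*.

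Genes with a pattern like that of the members were found by Pearson's r over the 6 libraries between each gene's log2(CPM + 0.5) and the mean of the members, among 14703 other genes whose mean reached 1 CPM. The 8 most alike were *Gimap8*, *Gm20257*, *Sept6*, *Itpr2*, *B3gnt5*, *Mtmr1*, *Tmed8* and *Txk*, with r of at least 0.998. With 2 tissues and 6 points, r is set mostly by the difference between tissues and is given as a description. Their sizes differed, since *Txk*, a Tec-family kinase of T cells, fell from 25 ± 10.7 to 1.33 ± 0.161 CPM (SD, n = 3, log2FC -3.71), whereas *Mtmr1* and *Tmed8* had log2FCs of -0.44 and -0.54 and were not called. The members' own r with their mean lay between 0.946 (*Blk*) and 0.997 (*Cd79b*).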

How the data were processed

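RNA-Seq was available for 6 libraries, 3 tumors and 3 normal glands of the same mice, grouped by the labelled tissue type. According to the labels and the study's methods, total RNA was extracted with Trizol, libraries were prepared with the Ovation RNA-Seq System V2 (NuGEN), and read pairs were mapped to mm9 with TopHat2 2.0.3 after CASAVA 1.8.2. Fragments per gene were counted with HTSeq 0.5.3p9, and genes with fewer than 10 fragments over all samples were removed. The strand setting is not given in the sources used here, so antisense reads cannot be told apart. The authors deposited a normalized signal per gene, CPM computed with edgeR 3.6.1 on the effective library size, and all 6 columns were used. Column totals differ, so the values were treated as a signal and not as plain CPM, with no change to the planned test. The deposited values were whole multiples of the CPM of 1 fragment in 100% of cases (tolerance 0.01 of that step), so fragments were recovered. With edgeR's quasi-likelihood test on these fragments, 4462 genes were called.

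The main test was limma's moderated test with a trend (limma 3.58.1, R 4.3.3) of log2(CPM + 0.5), two-sided, adjusted by the Benjamini-Hochberg method over 15280 genes, and called where the change was at least 2-fold and the adjusted p at most 0.05. The code was tested on simulated data. Alternatives were edgeR 4.0.16 and DESeq2 1.42.0 on fragments, other pseudocounts, a filter, plain totals, the mouse as a block and leaving out each library. Tumor and gland with the same number are from 1 animal, which pairs them. The r between the deviations of tumor and gland from their tissue means, over 14712 genes, was 0.107 between T11035 and M11035, 0.151 between T11640 and M11640, and 0.0168 between T9232 and M9232.

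The members and lists were chosen with earlier results of these data known. Named genes are the 9 members, the highest and lowest gene of each list (that of 1 list is not reported here), *Ebf1*, genes called against most of their list, and the 8 genes most like the members in pattern. In the short lists of lymph node stroma, plasma cells and plasmacytoid dendritic cells, further genes were named after their values were seen. Older symbols were used where the table holds them (*Igj* for *Jchain*). The lists share *Ptprc*, *Ptpn6*, *Irf8* and *Cxcl13*. Positions are those of GENCODE vM1 on mm9. With BLAST 2.17.0, members were compared with the protein-coding transcripts of GENCODE vM1, on the same strand only. No such transcript of another gene was at least 95% identical to a member over at least 500 bp. Noncoding and pseudogene transcripts were not searched. No exon of a member overlapped another gene of the table.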

Additional observations from a re-analysis of the deposited data

How the results depend on the processing

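All 9 members were called lower in each of 15 alternative settings, with adjusted p of at most 0.0103 (*Blk*, without gland M11035). The fall of genes near 0 depended on the pseudocount. *Cd79a* had a log2 fold change of -5.28 with 0.1, -3.71 with 1 and -3.00 with 2, and -5.61 with edgeR and -5.69 with DESeq2 on fragments. *Pax5* ranged from -5.76 (DESeq2) to -2.19 (pseudocount 2), whereas *Cr2* stayed between -5.23 and -4.62.

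With the mouse as a replicate block, limma called 9 members, 15 T cell genes and 4298 genes in all, beside 9, 15 and 4309 without it, and edgeR called 4462 genes both with and without the block. No member's call changed with it. Of the other B cell genes, 35 to 42 were called over the alternatives (40 in the fit reported), and of all genes 3465 to 4462. Leaving out 1 library at a time moved the summed level of the members in the tumors between 2.58% and 4.14% of the glands, and plain library totals gave 3.08%.

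Depth limits the size of the fall of *Pax5* and *Cd79a*, of which at most 3 fragments were counted in a tumor. It also limits that of *Blk*, with 1 fragment in T9232. The p-values without the block treat the 6 libraries as independent.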

Other observations

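A further 23 genes of the B lineage, chosen after their values were seen, were examined outside the lists. Of these, 19 were called lower, 0 higher and 4 were not called, while 13.7% of all genes were called lower. The median log2FC (tumor over gland, log2(CPM + 0.5)) was -2.00. Because the genes were chosen with their values known, the count and the median are descriptions only. *Btla*, an inhibitory receptor of B and T cells, read 221, 125 and 189 CPM in glands M11035, M11640 and M9232 and 10.2, 9.96 and 9.44 CPM in the tumors, with a log2FC of -4.07 (limma adjusted p = 5.04e-06).

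Genes that B cells share with antigen-presenting cells varied in size. *Cd1d1*, which presents lipids, had a log2FC of -3.92, and *H2-Oa*, a regulator of class II loading, had -2.63 (limma adjusted p = 8.04e-06 and 6.59e-04). *Ciita*, the class II transactivator, had -1.93. With 0, 0 and 1 fragments in T11035, T11640 and T9232, the size for *H2-Oa* depended on the scale. On fragments, edgeR gave a log2FC of -5.39 for *H2-Oa* and -4.03 for *Cd1d1*, the reverse order. The nucleic acid sensors *Tlr7* and *Tlr9* had log2FCs of 0.05 and 0.18 and were not called (limma adjusted p = 0.909 and 0.641), although B cells carry both. *Gpr183*, which guides B cells in follicles, had -0.88 (limma adjusted p = 0.0300) and missed the fold threshold.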
